A study of Mus musculus with 12 samples.

Results

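A set of 10 genes that mark the muscular and supporting cells of vessel and airway walls, Acta2, Tagln, Myh11, Cnn1, Des, Actg2, Pdgfrb, Cspg4, Rgs5 and Mcam, were followed in mouse lung tumors and normal mouse lung. They were taken by name, and all 10 were found among the 30399 genes of the table. Poly-A RNA sequencing had been done on 5 normal lungs and 7 tumors from a mouse lung cancer model made by Cas9 mutagenesis without a virus. The labels name each sample's tissue only. Strain, age, sex, targeted genes and the number of animals are not given in the sources used here. Titles carry a number that tumors 3 and 4 share (159), as do tumors 5, 6 and 7 (201), and a Spanish word for trachea in tumors 1 and 7 or for lung in tumors 3 to 6. The labels do not state what the number means, so p-values measure the spread between these samples, some of which may share an animal.

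Smooth muscle cells wrap arteries, veins and airways and contract through actin and smooth muscle myosin. Pericytes sit on capillaries, share the basement membrane with the endothelium, and are recruited by PDGF-B from endothelial cells acting on the receptor encoded by Pdgfrb. In lung, Acta2, Myh11 and Cnn1 are strongest in smooth muscle, while Pdgfrb, Cspg4 (the NG2 proteoglycan) and Rgs5 (a regulator of G protein signalling) are used to mark pericytes. None of the 10 is exclusive to these cells. Des is also made by heart and skeletal muscle, Mcam (CD146) by endothelium, Pdgfrb by fibroblasts, and Cspg4 by cartilage and glial precursor cells.

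The members moved apart. By limma, 7 of 10 fell in tumors (Acta2, Myh11, Cnn1, Des, Actg2, Pdgfrb and Mcam), 1 rose (Rgs5) and 2 were not called (Tagln and Cspg4), at an adjusted p under 0.05 over all tested genes. Rgs5 rose about 12.1-fold, while the genes that fell did so by 3.11-fold (Acta2) to 7.65-fold (Cnn1), as read from the fitted log2 fold changes. Over all 23674 tested genes, 30.1% were called lower and 31.4% higher in tumor. A count test, edgeR on 11 samples, called 3 of 10 lower (Cnn1, Pdgfrb and Mcam), where 26.3% of its tested genes were lower, and Rgs5 higher, where 34.9% were higher. The median log2 fold change of the 10 members was -1.97, against 0.04 over all tested genes. Tumor 7 stood apart, with the highest value among tumors for 8 of the 10 members. It was also highest for 9 of 10 endothelial and 7 of 9 fibroblast genes, and for 0 of 4 neuroendocrine genes. The share over all tested genes was not computed. These are bulk samples, in which fewer cells of a type and less RNA per cell cannot be told apart.

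Normal lung libraries held 11126432 to 17032234 gene-assigned reads, and tumor libraries 13093843 to 24217633, so that 3 reads, the limit below which values are not ranked, equal a normalized count of at most 4.85 and 3.57. The tissue labels held against marker genes: 4 of 4 neuroendocrine genes (Chga, Syp, Insm1 and Calca) lay above all normal lungs in every tumor, and 4 of 4 lung epithelial genes (Sftpc, Ager, Scgb1a1 and Sftpa1) lay below them. Over all tested genes, 20.1% lay above all normal lungs in every tumor and 18.4% below.

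**Figure D1:**
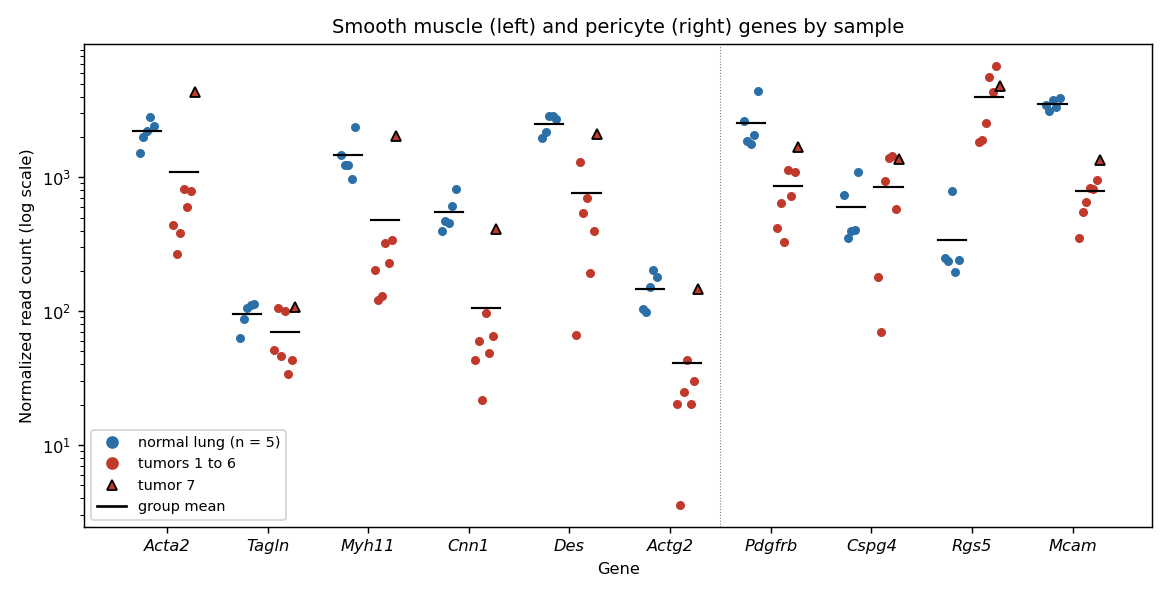
Normalized read counts of the 10 genes on a log axis, one point per sample, with 5 normal lungs in blue, tumors 1 to 6 as red circles, tumor 7 as a red triangle and the group mean as a black bar. Rgs5 is the only one of the 10 with all tumors above all normal lungs, and tumor 7 lies among or above the normal lungs for Acta2, Myh11, Actg2 and Cnn1.

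The promoters of genes that fell and of the gene that rose are shown first, because smooth muscle contractile genes are known to be driven by serum response factor at CArG boxes, and because Acta2 and Cnn1 fell where Rgs5 rose. RefSeq promoter windows on GRCm38.p6, 250 bases before to 50 after the start site, were matched for 6 of 10 members (Acta2, Cnn1, Des, Rgs5, Cspg4 and Mcam). The deposited table holds no coordinates and its values were made on GRCm39, so the windows describe the genes only. Capitals mark matches to a motif on either strand: a CArG box, a CArG-like box with 1 C or G in its AT-rich core, the MCAT element CATTCC bound by TEAD factors, or the TATA box TATAAA. The windows are Acta2 at chr19:34255324-34255623 (minus strand), Cnn1 at chr9:22099003-22099302 (plus strand) and Rgs5 at chr1:169655251-169655550 (plus strand).
Acta2: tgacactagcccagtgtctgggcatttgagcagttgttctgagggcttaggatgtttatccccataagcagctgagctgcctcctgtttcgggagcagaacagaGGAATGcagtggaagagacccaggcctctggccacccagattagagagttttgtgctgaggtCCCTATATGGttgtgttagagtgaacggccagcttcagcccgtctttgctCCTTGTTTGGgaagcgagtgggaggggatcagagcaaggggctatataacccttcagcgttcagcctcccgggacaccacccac
Cnn1: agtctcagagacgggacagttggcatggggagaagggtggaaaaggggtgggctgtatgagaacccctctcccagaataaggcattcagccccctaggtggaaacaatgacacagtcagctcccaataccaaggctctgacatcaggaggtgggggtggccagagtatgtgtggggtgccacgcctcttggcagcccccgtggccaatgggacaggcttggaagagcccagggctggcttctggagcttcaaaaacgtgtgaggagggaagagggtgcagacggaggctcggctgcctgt
Rgs5: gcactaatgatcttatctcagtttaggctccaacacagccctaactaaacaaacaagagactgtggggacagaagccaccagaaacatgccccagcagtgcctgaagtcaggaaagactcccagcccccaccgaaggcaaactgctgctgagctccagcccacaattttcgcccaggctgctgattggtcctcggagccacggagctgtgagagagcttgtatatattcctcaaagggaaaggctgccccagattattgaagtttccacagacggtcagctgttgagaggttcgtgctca

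Acta2 alone among the 6 windows held a match. Its CArG-like boxes begin at positions -84 and -34 from the annotated start, and an MCAT element on the opposite strand begins at position -146. These matches do not overlap. No window held a CArG box, which occurs in 1.63% of 32851 promoter windows of this length, or TATAAA, which occurs in 13.6%. CArG-like boxes occur in 8.50% and MCAT elements in 14.7%. A match here is a description of letters, and the absence of one in 300 bases says nothing about a factor acting elsewhere.

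Among the contractile genes, Acta2 (ENSMUSG00000035783) encodes alpha smooth muscle actin, the main actin of vascular smooth muscle. Its normalized counts were 1514, 2015, 2222, 2839.7 and 2435 in normal lungs 1 to 5. In tumors 1 to 7 they were 439, 268, 387, 821, 596, 797 and 4374. Tumors 1 to 6 all lay below every normal lung, at 12.2% to 37.2% of the normal lung mean, and tumor 7 lay above all of them at 198%. The log2 fold change was -1.64 (SE 0.53, adjusted p = 0.0159), and -2.08 without tumor 7 (adjusted p = 3.03e-05). With tumor 7 kept, edgeR did not call it (-0.75, adjusted p = 0.313).

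Myh11 (ENSMUSG00000018830), the heavy chain of smooth muscle myosin, followed the same order of groups. Normal lungs 1 to 5 stood at 1468, 1243, 1242, 966 and 2382 normalized counts, and tumors 1 to 7 at 204, 122, 129.9, 325, 229.7, 338 and 2028. Tumor 7 fell inside the normal lung range, and the other tumors lay under it at 8.32% to 23.2% of the normal lung mean. The log2 fold change was -2.27 (SE 0.56, adjusted p = 0.0034), and -2.73 without tumor 7 (adjusted p = 5.90e-06). Myh11 too was not called by edgeR with tumor 7 kept (-1.32, adjusted p = 0.101).

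Cnn1 (ENSMUSG00000001349) encodes calponin, an actin-binding protein of differentiated smooth muscle, and had the largest decrease of the members. Its normal lung values were 396, 474, 454, 607 and 819.7. The tumors had 43.0, 59.6, 21.8, 96.1, 48.5, 64.7 and 412. Only tumor 7 reached the normal lung range, just above the lowest normal lung. Its log2 fold change was -2.93 (SE 0.54, adjusted p = 3.96e-04) and -3.36 without tumor 7.

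Actg2 (ENSMUSG00000059430), gamma smooth muscle actin, is the main actin of visceral muscle and was less abundant per length than Acta2. Counts were 103, 98.9, 152, 205 and 179 in normal lung. The tumors had 20.3, 3.57, 24.8, 43.1, 20.2, 30.3 and 145, where the value of tumor 2 rests on 3 reads. Again tumors 1 to 6 lay below all normal lungs and tumor 7 within them. The log2 fold change was -2.40 (SE 0.63, adjusted p = 0.00498). Actins have near-identical coding sequences, and how the counting treated reads shared between them is not given in the sources used here, so the values of Acta2 and Actg2 are uncertain to that extent.

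Des (ENSMUSG00000026208) encodes desmin, the intermediate filament of all muscle types, which some pericytes also carry. The normal lungs stood at 1956, 2162, 2881, 2864 and 2726, the tumors at 66.5, 1306, 540.3, 705, 194, 396 and 2104. Over tumors 1 to 6 desmin ranged from 2.64% of the normal lung mean in tumor 1 to 51.9% in tumor 2. The log2 fold change was -2.39 (SE 0.66, adjusted p = 0.00678), and -1.92 without tumor 1, -2.75 without tumor 7 and -3.53 with the level of Y-linked genes as a covariate. The ratio of Des to Acta2 was 1.01 to 1.30 in normal lungs, against 0.151 to 4.87 among tumors, with tumor 2 the highest and tumor 1 the lowest. In tumor 2 the skeletal muscle gene Tnnt3 stood at 572 and Ckm at 238 normalized counts, against medians over all tumors of 12.8 and 23.6. Ckm has 15.5% of its exonic bases under a gene on the opposite strand. Of the rest of the skeletal list, Myh4 stood at 127, Myh1 at 8.34 and Myog at 4.77, against medians of 0, 0 and 2.02. Myod1 went the other way, at 1.19, under the limit of 3 reads, against a median of 7.28. The part of striated muscle in the Des values was not tested.

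Tagln (ENSMUSG00000032085) encodes transgelin (SM22 alpha), an early smooth muscle protein. Its counts were 63.2, 87.1, 105, 111 and 113 in normal lung and 51.3, 105, 46.6, 101, 34.0, 43.1 and 108 in tumors. The groups overlapped, with tumors 2, 4 and 7 near the upper normal lungs, and Tagln was not called (log2 fold change -0.56, SE 0.35, adjusted p = 0.174). In GENCODE M21, 62.4% of its exonic bases overlap Gm48529 on the opposite strand, a gene not analysed here. Whether the strand was used in counting is not given in the sources used here, so Tagln counts are uncertain.

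The pericyte members went in different directions. Pdgfrb (ENSMUSG00000024620), the receptor for PDGF-B, had 2652, 1873, 1781, 2086 and 4415 normalized counts in normal lung. Its tumor values were 416, 648, 329, 1137, 726, 1099.8 and 1697. Every tumor lay below every normal lung, tumor 7 only just, as in 18.4% of all tested genes. The receptor's log2 fold change was -1.68 (SE 0.38, adjusted p = 0.00181).

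Mcam (ENSMUSG00000032135), an adhesion molecule of pericytes, smooth muscle and endothelium, was the most even of the members in normal lung, at 3446, 3131, 3807, 3338 and 3932. Tumors had 349, 552, 656, 831, 815, 949 and 1352, again without overlap. Its log2 fold change was -2.27, with an SE of 0.26 and an adjusted p = 6.94e-06. The endothelial list moved with it, with 10 of 10 genes lower in tumor, where 30.1% of all tested genes were lower by limma. Its summed levels were 70558 to 83624 normalized counts in the normal lungs, against 1423 to 7399 in the tumors. The part of endothelial cells in the Mcam values was not tested.

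Rgs5 (ENSMUSG00000026678), whose product shortens G protein signalling and which is a common pericyte marker, was the member that rose. Normal lungs had 248, 235, 787, 194.7 and 243 normalized counts. Tumors had 1828, 1886, 2558, 5649, 4374, 6795 and 4827. All 7 tumors lay above all 5 normal lungs, as in 20.1% of tested genes, and the highest normal lung (normal lung 3) was still below the lowest tumor (tumor 1). The log2 fold change was 3.59 (SE 0.41, adjusted p = 5.61e-06), a size that 5.18% of tested genes reached or passed in the same direction. It was 3.95 without normal lung 3, 3.52 without tumor 7 and 2.69 with the level of Y-linked genes as a covariate. Which cells carried the Rgs5 RNA in the tumors, whether pericytes, tumor cells or others, was not tested.

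Cspg4 (ENSMUSG00000032911), the NG2 proteoglycan, was not called (log2 fold change 0.08, SE 0.71, adjusted p = 0.93). Its values were 738, 349, 401, 402 and 1094 in the normal lungs, against 179.8, 70.3, 938, 1396, 1441, 583 and 1367 in the tumors. The tumors lay on both sides of the normal lungs, with tumors 1 and 2 below all of them and tumors 4, 5 and 7 above all of them. The sign of its fold change turned in 10 of 25 other fits. Genes listed for cartilage, another source of Cspg4, had summed levels of 7.05 to 48.3 in normal lung and 98.1 to 746 in tumors. By limma 3 of 5 were called higher (Col2a1, Acan and Sox9), where 31.4% of all tested genes were higher. Matn1 (log2 fold change 0.35, adjusted p = 0.666) and Comp (1.83, adjusted p = 0.0694) were not called. The highest sum, in tumor 6, was mostly Sox9, at 617, with Col2a1 at 74.8. Sox9 was also high in tumor 3, at 551, but stood at 42.9 in tumor 2. Whether the Sox9 RNA came from cartilage was not tested. Tumor 2, the lowest in Cspg4, had the highest counts of Acan (276) and Col2a1 (228). The part of cartilage or of other cells that make Cspg4 in the Cspg4 values was not tested.

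Ratios within a sample do not depend on how samples were scaled. The ratio of Rgs5 to Pdgfrb was 0.0934, 0.126, 0.442, 0.0933 and 0.0549 across normal lungs 1 to 5. Tumors 1 to 7 stood at 4.39, 2.91, 7.77, 4.97, 6.03, 6.18 and 2.84. Every tumor was above every normal lung. Cspg4 to Pdgfrb was 0.187 to 0.278 in normal lung and above that range in 6 of 7 tumors (0.432 to 2.85), with tumor 2 below it at 0.108. The ratio of Acta2 to Pdgfrb overlapped between groups, at 0.552 to 1.36 in normal lung and 0.414 to 1.17 in tumors 1 to 6, but was 2.58 in tumor 7. Acta2 to Myh11 was nearly level across tumors, at 2.15 to 2.98, and 1.02 to 2.94 in normal lung. The tumors thus differed from each other several-fold in both contractile genes while the proportion between these 2 genes varied little.

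**Figure D2:**
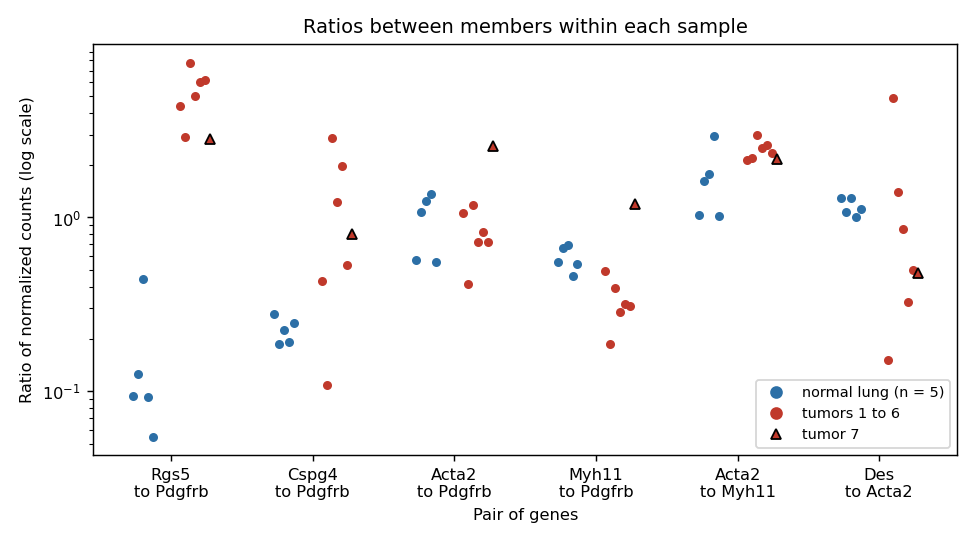
Ratios of normalized counts between pairs of members within each sample on a log axis, with 5 normal lungs in blue, tumors 1 to 6 as red circles and tumor 7 as a red triangle. All tumors (2.84 to 7.77) lie above all normal lungs (0.0549 to 0.442) for Rgs5 to Pdgfrb, and tumor 7 is highest for Acta2 to Pdgfrb at 2.58.

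Divided by exonic length, the order of the members differed between the groups. In normal lung Mcam (median 1029 normalized counts per kilobase) and Acta2 (1012) were highest and overlapped in range, followed by Des (726), Pdgfrb (381), Cnn1 (173), Myh11 (164), Actg2 (97.5), Rgs5 (53.4), Tagln (52.8) and Cspg4 (33.7). Neighbours in this order overlapped in range over the normal lungs, except Pdgfrb and Cnn1. In tumors Rgs5 came first with a median of 962 per kilobase, ahead of Acta2 (271), Mcam (243), Des (143.9), Pdgfrb (132), Cspg4 (78.6), Myh11 (30.2), Tagln (25.8), Cnn1 (21.8) and Actg2 (15.9). From Acta2 to Actg2 each neighbour in the tumor order overlapped the next. The range of Rgs5, 402 to 1495, overlapped that of Acta2, 122 to 1992, only through tumor 7.

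Other genes listed as contractile partners, not all of them parts of the contractile apparatus, moved mostly with the members. By limma, 11 of 13 contractile partners fell, 0 rose and 2 were not called, with a median log2 fold change of -1.78. Over all tested genes 30.1% were lower by limma. EdgeR on 11 samples called 8 of the 13 lower and 0 higher, where 26.3% of its tested genes were lower. Itga8, an integrin subunit of smooth muscle and fibroblasts, had the largest decrease, with normal lungs at 3268 ± 822 (SD, n = 5) and tumors at 211 ± 371 (SD, n = 7), and its log2 fold change was -5.26 (SE 0.79, adjusted p = 7.08e-05). Ppp1r14a, an inhibitor of myosin phosphatase, had 1788 ± 589 and 114 ± 135 (log2 fold change -4.47). Mylk, the kinase that starts smooth muscle contraction, had 3792 ± 1186 and 393 ± 303 (-3.52). Smtn (smoothelin), with 16.3% of its exonic bases under a gene on the opposite strand, was not called, at 939 ± 444 and 1125 ± 671 (0.21), nor was Tpm2, a tropomyosin (-1.29). In 11 of the 13 partners tumor 7 was the highest tumor. All tumors lay below all normal lungs for 7 of the 13, and for 18.4% of all tested genes.

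Of 4 regulators of the contractile programme, 1 fell, 0 rose and 3 were not called by limma. Over all tested genes 30.1% were lower and 31.4% higher. Serum response factor (Srf) was not called, at 1294.4 ± 109.6 normally and 1075 ± 368 in the tumors (log2 fold change -0.33, adjusted p = 0.19). Myocd, the coactivator myocardin that directs smooth muscle and heart genes, had 64.9 to 120 in normal lung, 10.7 to 75.5 in tumors 1 to 6 and 601 in tumor 7, and was not called (-0.93, adjusted p = 0.329). Of the myocardin-related factors, Mrtfb fell (-0.98, adjusted p = 0.00153) and Mrtfa had the highest value of the group (0.15, adjusted p = 0.691). Without tumor 7, 3 of the 4 regulators were called lower. The share over all tested genes in that fit was not computed.

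Most other pericyte genes fell, unlike Rgs5. Of 13, 11 fell and 0 rose by limma, with a median log2 fold change of -1.91, where 30.1% of all tested genes fell. EdgeR on 11 samples called 9 of these 13 lower and 0 higher, where 26.3% of its tested genes were lower. Trpc6, a cation channel, had the largest decrease, from 401 ± 102 to 23.6 ± 20.6 normalized counts (log2 fold change -4.49, SE 0.58, adjusted p = 1.79e-05). Higd1b went from 373 ± 126 to 22.7 ± 10.7 (-4.06), and the mitochondrial subunit Cox4i2 from 816 ± 165 to 89.4 ± 34.0 (-3.25). Abcc9, a subunit of a potassium channel of pericytes, was the only one of the 13 with a positive value, 0.26, and was not called, and neither was Anpep (-0.61). In the PDGF list 3 of 4 ligands fell (Pdgfa, Pdgfb and Pdgfd), as did the alpha receptor Pdgfra, which is also counted among the fibroblast genes. Pdgfa has 26.1% of its exonic bases under a gene on the opposite strand, so its counts are uncertain. Pdgfb, the endothelial ligand of the receptor Pdgfrb, went from 3972 ± 718 to 209 ± 286 (-5.10, SE 0.67, adjusted p = 2.15e-05), while Pdgfc was not called (-0.29).

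**Figure D3:**
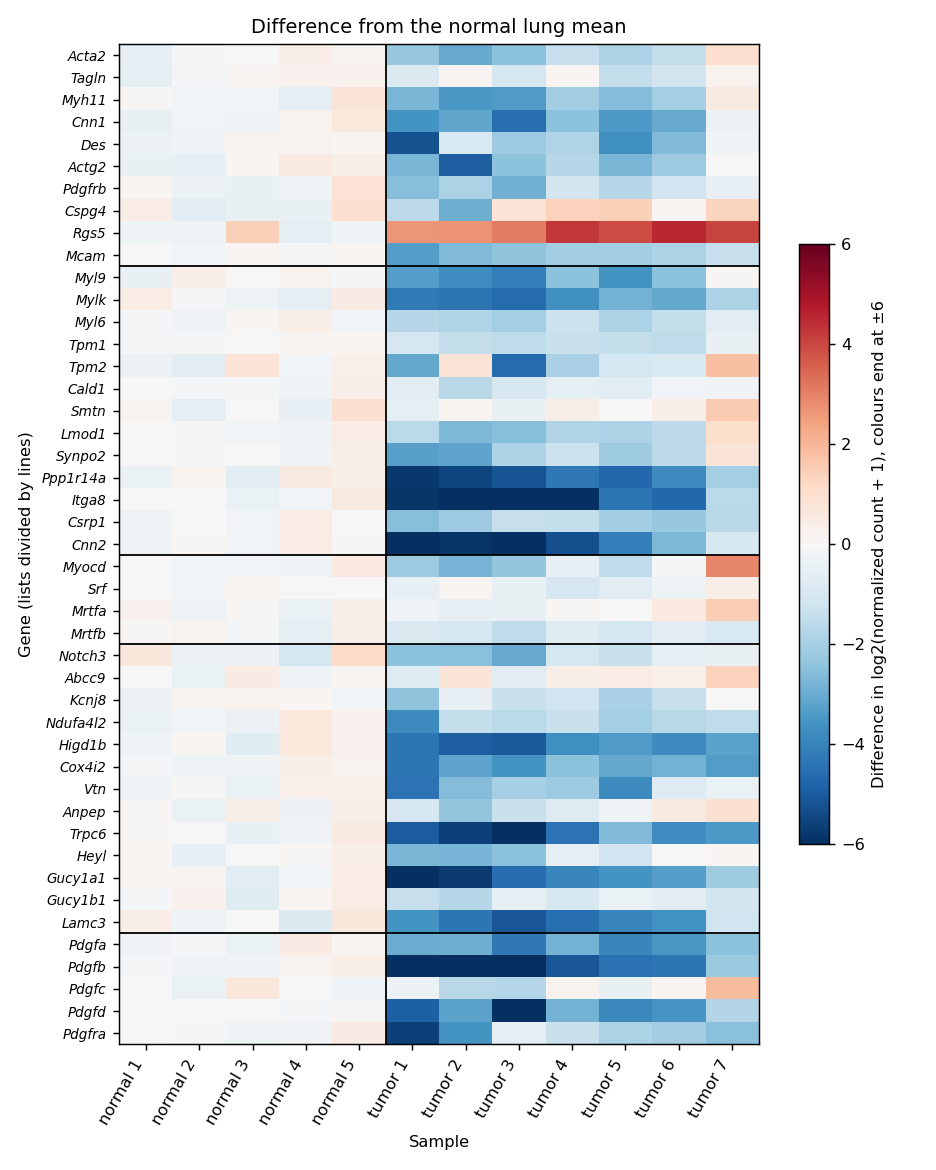
Difference of each sample from the normal lung mean in log2(normalized count + 1), for the 10 members (top block) and, below, contractile partners, transcription regulators, other pericyte genes and the PDGF genes, with 5 normal lungs left of the vertical line and 7 tumors right of it. Rgs5 is red in all 7 tumors, most other rows are blue, and tumor 7 is paler or red for contractile genes.

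Tumor 7 carried more muscle RNA than the other tumors, of more than 1 kind. The 6 contractile and filament members summed to 9172 normalized counts in it, against 824 to 2091 in tumors 1 to 6 and 5500.4 to 8654 in normal lung. Tumors 5 and 6, which share its title number, had Acta2 at 596 and 797. Cardiac muscle genes moved with this sample. The 7 cardiac genes summed to 40942 in tumor 7, against at most 2957 in the other tumors and 492 to 4624 in normal lung. Myh6, a myosin heavy chain of heart, stood at 18022 in tumor 7. Nppa stood at 7498 there, with 61.5% of its exonic bases under a gene on the opposite strand, so its counts are uncertain. By limma 0 of the 7 cardiac genes were called between groups, while edgeR called 1 higher (Ryr2), where 34.9% of its tested genes were higher. Without tumor 7, limma called 2 lower, and the share over all tested genes in that fit was not computed. Ryr2 did not follow Myh6 in every tumor. It was 1119 in tumor 1 and 701 in tumor 5, where Myh6 was 2.53 and 4.04. The 6 skeletal muscle genes summed to 229 in tumor 7, below tumor 2 (952) and above the other tumors, with Ckm at 160.1 and Tnnt3 at 45.5 and with Myh4 and Myh1 listed at 0. Fibroblast genes were also high in tumor 7, at 31985 against at most 22658 in the other tumors and 24399 to 36473 in normal lung. Mesothelial genes summed to 1010.0 in it, against at most 331 in the other tumors. Of the endothelial genes 9 of 10 were highest in tumor 7 among the tumors, all but Flt1. The 4 neuroendocrine genes were lowest in tumor 7, with Chga at 11821, Insm1 at 4708, Calca at 2267 and Syp at 411, and their sum of 19207 compared with up to 86304 in the other tumors. Tumor 2 was next lowest for each, with Chga at 14672, Insm1 at 9516, Calca at 2450 and Syp at 487. The part of these cells and tissues in the smooth muscle values was not tested.

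Fibroblast genes split, with 3 of 9 called lower (Mfap4, Dpt and Pdgfra), and 0 higher. By limma 30.1% of all tested genes were lower and 31.4% higher, so 3 of 9 is near the share over all genes. Mfap4 had the largest decrease (-6.04) and Col1a1 the highest value (0.72, not called). Without tumor 7, 5 of 9 were called lower, in a fit whose share over all tested genes was not computed. Of the other actins, Actb, which all cells make, fell (log2 fold change -1.10, adjusted p = 0.00719), and Actg1 was not called (-0.27). In normal lung the mean of Actg1 was 403 normalized counts, against 63281 for Actb. How reads shared between actins were counted is not given in the sources used here, so both values are uncertain. In mesothelium 3 of 4 genes fell, from -6.28 (Upk3b) to -2.58 (Msln). The skeletal muscle list had 1 of 6 called, Myod1, higher at 1.90 with at most 16.0 normalized counts in any sample, and its lowest value was that of Tnnt3 (-2.65).

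Which test was used decided several contractile calls. On whole reads recovered from 11 samples (all but tumor 3), edgeR with TMM factors tested 18308 genes. Beside Acta2 and Myh11 it did not call Des (-1.56, adjusted p = 0.06) or Actg2 (-1.63, adjusted p = 0.0526). Limma on those 11 samples called 7 lower. With tumor 7 also left out, edgeR called 7 lower too, with Acta2 at -1.89 (adjusted p = 1.95e-04) and Myh11 at -2.54 (adjusted p = 2.91e-05). DESeq2 on the same 11 samples, tumor 7 included, called 5 members lower, with Des at -1.64 (adjusted p = 0.0242) and Actg2 at -1.73 (adjusted p = 0.0175), and did not call Acta2 (-0.84, adjusted p = 0.248). For edgeR on 11 samples 26.3% of its tested genes were lower. For the other fits in this paragraph the share over all genes was not computed, so their member counts have no share beside them. The decreases of Cnn1, Pdgfrb and Mcam and the increase of Rgs5 were called in all 25 alternative fits.

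**Figure D4:**
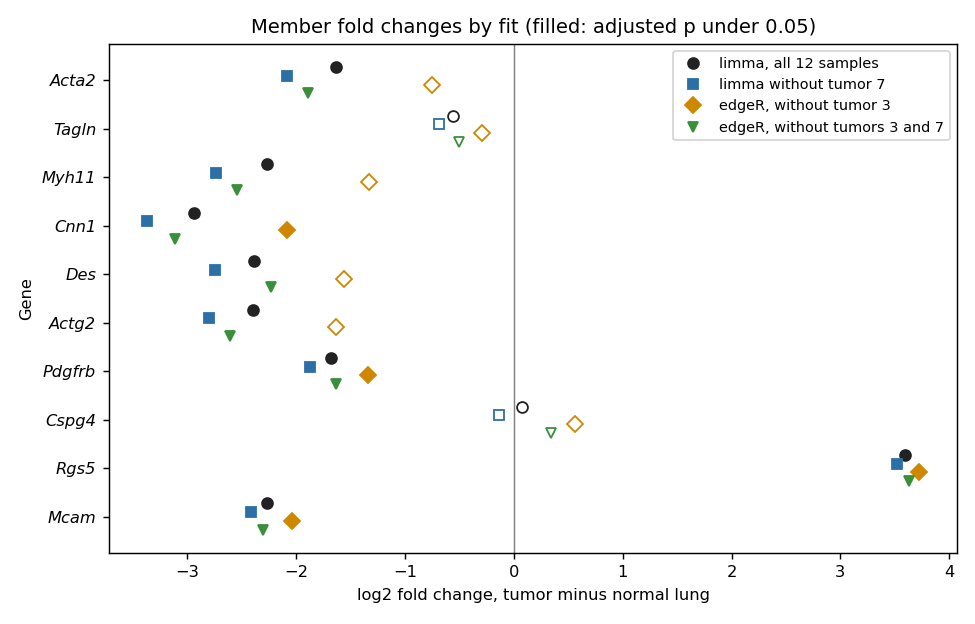
Log2 fold change of each member (tumor minus normal lung) in 4 fits, filled where the adjusted p was under 0.05. Leaving out tumor 7 moves the contractile genes to the left and fills the edgeR markers of Acta2, Myh11, Des and Actg2, while Rgs5 stays between 3.52 and 3.72.

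The titles also allow 2 trachea-titled tumors (1 and 7) to be set against 4 lung-titled tumors (3 to 6), since the trachea wall holds smooth muscle. By limma 0 of 10 members passed an adjusted p of 0.05 (0.651 to 0.977), 0 had an unadjusted p under 0.05, and 0% of 23282 tested genes were called, although 2086 had unadjusted p-values under 0.05. The trachea-titled tumors were far apart, with Acta2 at 439 and 4374 and Myh11 at 204 and 2028, and tumor 1 lay within the lung-titled range of both genes. The log2 difference for Myh11, trachea-titled minus lung-titled, was 1.43 (SE 0.86), and a difference of that size was not detectable with these samples.

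Genes with the pattern most like the contractile members were sought over 16518 genes and all 12 samples, by the root mean square difference between centred log2 profiles and the mean profile of Acta2, Tagln, Myh11, Cnn1 and Actg2. The 5 nearest that are no members were Fcgrt (0.23 log2 units), an antibody-recycling receptor, Nexn (0.31), an actin-binding protein of muscle, Lgals3bp (0.34), Lyn (0.34), a kinase of blood cells, and Ifngr1 (0.35), an interferon receptor chain. Of the genes that built the profile, Acta2 stood at 0.29 and Myh11 at 0.38, while Cnn1 (0.59), Actg2 (0.59) and Tagln (0.98) lay farther off, at ranks 333, 345 and 2812. Fcgrt had 705 to 1096 normalized counts in normal lung, at most 319 in tumors 1 to 6 and 991 in tumor 7. Nexn had 546 to 802 in normal lung, at most 207 in tumors 1 to 6 and 1138 in tumor 7. These genes were selected for this pattern, so their levels are a description.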

How the data were processed

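Poly-A RNA of 5 normal lungs and 7 tumors had been sequenced as paired reads. The deposited table holds a normalized read count signal per gene, which from its values is whole reads divided by a size factor per sample by the authors. The submitters' processing notes name featureCounts, DESeq2 and GRCm39. The aligner and strand setting are not given in the sources used here. In every sample 100% of values were whole multiples of 1 read's value (within 0.01 reads). For tumor 3 a separate check of this recovery failed, so count tests used 11 samples. Size factors ran from 0.6192 to 1.5796. A table of gene names gave symbols for 29982 of 30399 identifiers, and GENCODE M21 (GRCm38) gave exonic lengths and overlaps only. Of 104 listed symbols, 99 were in the table and 5 were not analysed here. One list of markers is not reported here.

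The tests used limma 3.58.1 in R 4.3.3 (lmFit and eBayes with a trend) on log2(value + 1), for genes whose mean reached 1, and Benjamini-Hochberg adjustment over all 23674 genes. Fold changes on that scale understate low genes. Alternatives were edgeR 4.0.16 and DESeq2 1.42.0 on recovered reads, other filters, pseudocounts and scalings, title numbers as a block or averaged, and samples left out. The fit was tested on simulated data. Members, lists and tests were chosen with earlier results of these data known. Genes named are all members, the extremes of each list, markers given beside a result and the 5 nearest profiles. Further named genes (Ppp1r14a, Mylk, Higd1b, Cox4i2, Tpm2, Anpep) were chosen after their values were seen. Replicate numbers only name samples.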

Additional observations from a re-analysis of the deposited data

Results flagged for a closer look

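Of 20 groups examined (10 members in normal lung and in tumors), 3 had a highest or lowest sample whose gap to its neighbour exceeded the 95% limit of Dixon's ratio on the log2 scale, where chance gives about 1. Acta2 was highest in tumor 7, at 4374 normalized counts against 268 to 821 in the other tumors (ratio 0.600, limit 0.568). Myh11 was also highest in tumor 7, at 2028 against 122 to 338 (ratio 0.637). Rgs5 was highest in normal lung 3, at 787 against 194.7 to 248 in the other normal lungs (ratio 0.828, limit 0.710), and normal lung 3 had the highest Ckm (665) and Tnnt3 (287) of the normal lungs. The part of skeletal muscle in that Rgs5 value was not tested.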

How the results depend on the processing

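Across 25 other fits of tumor against normal lung, including 12 that left out 1 sample each, the count of members called lower stayed between 5 and 8 except with edgeR on 11 samples, where it was 3, and Rgs5 was the 1 member called higher in all of them. Of these fits, the share over all tested genes was computed only for edgeR on 11 samples (26.3% lower). Acta2 also missed the threshold in DESeq2 (-0.84, adjusted p = 0.248), which gave no adjusted p for Myh11. Tagln passed it without tumors 2 and 7 (-0.86, adjusted p = 0.0289), a setting chosen after seeing the data, as were the Y-linked covariate and edgeR without tumor 7. The uncalled Cspg4 changed sign with a Y-linked covariate (-0.30), with title number as a correlated block (-0.19), with same-numbered tumors averaged (-0.58) and in fits leaving out 1 sample, which ran from -0.15 to 0.58. The counts of other listed genes kept within 1.5 times, and 0 members were called between trachea-titled and lung-titled tumors in all 11 alternatives. No paired analysis was possible because replicate numbers were given in order of listing. Reads are not independent molecules, so the floor of 3 reads covers counting error only.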
